A study of Rattus norvegicus with 42 samples.

Results

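Mt-rnr1 and Mt-rnr2 are the 12S and 16S ribosomal RNAs encoded by mitochondrial DNA. They were taken from the deposited count tables by their identifiers, ENSRNOG00000030478 for Mt-rnr1 and ENSRNOG00000043866 for Mt-rnr2, and are 2 of the 13776 genes listed. Both had been picked because earlier results of the same data showed that they take a large share of the counts in knockout cells, so their levels in knockout against wild type are given as a description, without a test. The samples were GH4C1 cells, a long-established line of rat pituitary cells that belong to the growth hormone and prolactin lineage, either wild type and untreated (WT) or Neat1 -/- after CRISPR-Cas9 (KO). Neat1 is a long non-coding RNA that forms the scaffold of nuclear paraspeckles. Cells of both genotypes were harvested every 4 h from 10 to 34 h after a change to fresh medium (ZT10 to ZT34 in the labels), which gave 7 times, 3 replicates at each and 42 libraries in all. The labels do not say whether the KO cells are 1 clone, whether WT cells went through the same selection, or whether the replicates are separate cultures. Where they are not, the p-values below measure a spread that may be technical.

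Mitochondria carry ribosomes of their own, which make the few membrane proteins of the respiratory chain and ATP synthase that mitochondrial DNA encodes. The 12S rRNA is the RNA of the small subunit of this ribosome and the 16S rRNA, the longer of the pair, that of the large subunit. Both are cut from the same heavy-strand transcript, in which transfer RNAs flank and separate them, and are then modified and packed with proteins imported from the cytosol. In mammalian cells mature mitochondrial rRNAs end in very short adenine tails, unlike most mitochondrial messenger RNAs, so the level at which they appear in a sequencing library depends on how RNA was selected or ribosomal RNA removed. The labels used here state a strand-specific protocol of the manufacturer for both genotypes, but not whether poly(A) selection or rRNA depletion was used, nor whether WT and KO libraries were made together. Genotype and any difference between the 2 sets of libraries therefore cannot be told apart in what follows. Nuclear DNA also holds copies of mitochondrial sequence, and how reads with several matches were counted is not given in the sources used here, which makes the level of both genes uncertain to that extent.

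The libraries held 34.5 to 68.8 M counts in WT and 45.9 to 60.5 M in KO (M, mega). In 40 of 42 pairs of replicates the correlation over all other genes of log2 CPM (counts scaled to a common library size) was 0.990 to 0.997. The exceptions were the 2 pairs that contain WT replicate 1 of 34 h, at 0.920 and 0.938, so this library stood apart from its group across genes. The WT summaries and tests that rest on it are therefore also given without it. No identifier was paired with a symbol, so Neat1 itself, the pituitary markers and the mitochondrially encoded messenger RNAs could not be picked out. They were not analysed as such, and genes given below by identifier may be among them. The genotype and cell line labels were used as given.

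Mt-rnr2 was the most abundant gene of every KO library. It held 15.8% of the counts in the lowest KO library, 17.1% in the median and 19.0% in the highest, with a mean of 17.1% ± 0.813 (SD, n = 21). In WT it held 0.0251% in the lowest library, 0.0303% in the median and 0.251% in the highest, with a mean of 0.0505% ± 0.0568 (SD, n = 21), or 0.0405% ± 0.0342 (SD, n = 20) without replicate 1 of 34 h. The lowest KO library lay 62.8 times above the highest WT library, and 89.1 times above it without replicate 1 of 34 h, so the genotypes did not overlap. By rank of counts within a library, Mt-rnr2 was between the 13th and the 735th gene in WT, with a median rank of 569.

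Mt-rnr1 held less of each library but gave the same separation. In KO it held 1.81% of the counts in the lowest library, 2.06% in the median and 2.37% in the highest, with a mean of 2.06% ± 0.139 (SD, n = 21). In WT it held 0.00504% in the lowest library, 0.00814% in the median and 0.127% in the highest, with a mean of 0.0197% ± 0.0304 (SD, n = 21), or 0.0165% ± 0.0274 (SD, n = 20) without replicate 1 of 34 h. The lowest KO library lay 14.2 times above the highest WT library. Mt-rnr1 ranked 2 or 3 among the genes of each KO library and from 49 to 4602 in WT, with a median rank of 2950. Groups that did not overlap, with KO higher, were found for 8.62% of all genes by the same CPM measure that is used below (1187 of 13776), or 21.5% without WT replicate 1 of 34 h, and nothing is read from that property for genes chosen on this contrast.

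**Figure D1:**
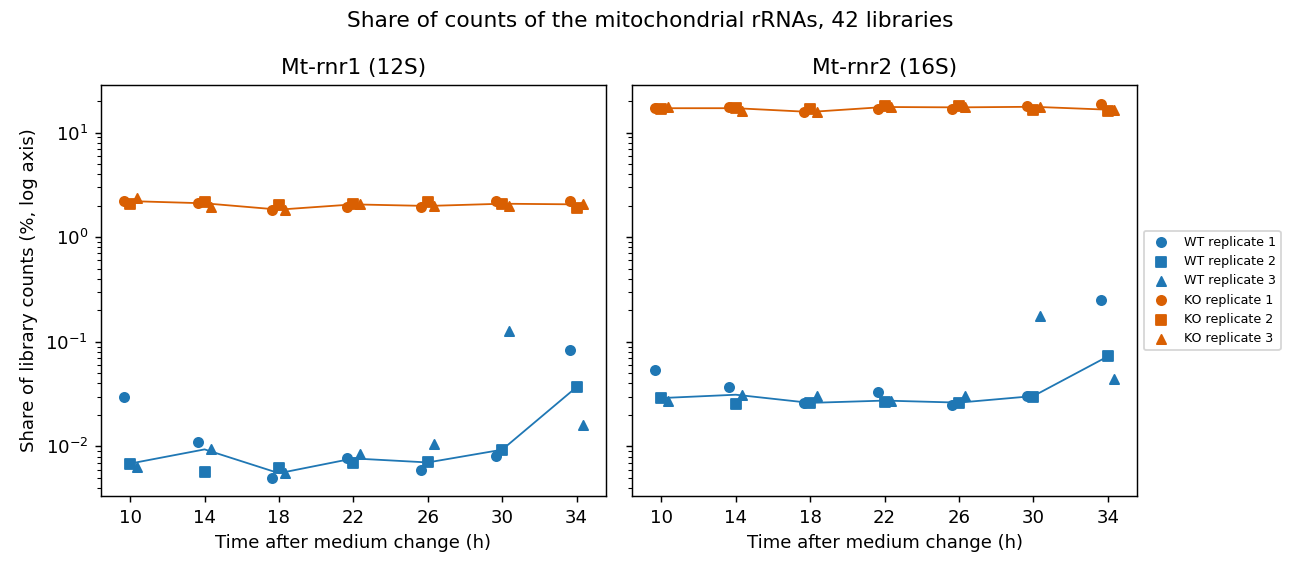
Share of library counts (%, log axis) of Mt-rnr1 and Mt-rnr2 against time after medium change (h). Each point is 1 library, the marker shows the replicate and the line joins the medians of 3. KO libraries stay near 2.06% and 17.1%, and the WT medians are 0.00814% and 0.0303%. The 5 highest WT libraries are the same for both genes, replicate 1 of 10 h, replicate 3 of 30 h and all 3 of 34 h.

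To compare libraries of different makeup, CPM were computed with TMM, a method that sets the scale by the bulk of genes rather than by the total. On this scale Mt-rnr2 was at 452 ± 494 CPM in WT and 189984 ± 11416 CPM in KO, and Mt-rnr1 at 177 ± 273 CPM in WT and 22850 ± 1819 CPM in KO (SD, n = 21 each). Without WT replicate 1 of 34 h the WT levels were 368 ± 314 and 150.4 ± 251 CPM (SD, n = 20). Averaged over the 7 times on the log2 scale, KO exceeded WT by 8.96 for Mt-rnr2 and by 7.53 for Mt-rnr1. The median over all 13776 genes was -0.01. By the quasi-likelihood test of edgeR 88.1% of all genes were called between KO and WT (adjusted p under 0.05), and 43.4% were called higher in KO, a background that is printed for scale only. Ranked by fold change over the called genes that averaged 10 CPM or more over all libraries of both genotypes, Mt-rnr2 and Mt-rnr1 came 1st and 2nd. After them came ENSRNOG00000046548 and ENSRNOG00000051831, at 5.71 and 5.15. Their means were 0.907 and 0.986 CPM in WT and 47.14 and 26.65 CPM in KO, so they passed the floor of 10 CPM through KO only. A gene of lower abundance, at a mean of 0.454 CPM over all libraries, lay between the rRNAs and these, at 6.54.

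The size of the gap varied with time because WT varied. For Mt-rnr2 the KO mean was 585 times the WT mean at 10 h, 796 times at 26 h, 266 times at 30 h and 173 times at 34 h. For Mt-rnr1 the corresponding values were 193, 325, 52.2 and 55.5 times. Between 14 and 26 h the fold stayed between 670 and 796 for Mt-rnr2 and between 296 and 417 for Mt-rnr1. Medians of 3 depend less on single libraries, and by these the fold at 30 h was 709 for Mt-rnr2 and 264 for Mt-rnr1, while at 34 h it was 264 and 64.5. Without WT replicate 1 of 34 h the fold of means at 34 h was 345 for Mt-rnr2 and 90.7 for Mt-rnr1, and without WT replicate 3 of 30 h that at 30 h was 701 and 291. The 34 h difference from the earlier times was thus seen in means and in medians, and that at 30 h in means only.

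Because the 2 rRNAs took 17.6% to 21.2% of each KO library and at most 0.335% of each WT library, they also set the scale of all other genes when library totals are used. A gene expressed as a share of the total appears lower by a factor of 1.21 to 1.27 in KO libraries, and of at most 1.003 in WT libraries, than the same gene as a share of the counts left after the 2 rRNAs are taken out. The counts left were 36.9 to 48.9 M in KO and 34.5 to 68.8 M in WT. With library totals the log2 difference of KO and WT was 8.66 for Mt-rnr2 and 7.23 for Mt-rnr1, and with totals taken after the rRNAs were left out it was 8.97 and 7.54.

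In WT the libraries of 1 group differed far more than counting allows. At 10 h Mt-rnr2 was at 486, 260 and 248 CPM in replicates 1, 2 and 3, and Mt-rnr1 at 270, 61.5 and 57.2 CPM. At 14 h the 3 libraries held 337, 229 and 281 CPM of Mt-rnr2 and 99.3, 51.3 and 84.3 CPM of Mt-rnr1. Replicate 1 was the highest for both genes at both times, by a wider margin at 10 h.

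From 18 to 26 h the WT libraries lay close together for Mt-rnr2, and at 18 and 22 h for Mt-rnr1. At 26 h the highest Mt-rnr1 share was 1.77 times the lowest, against 1.92 times at 14 h. Mt-rnr2 was at 230, 232 and 276 CPM at 18 h, at 297, 239 and 247 CPM at 22 h, and at 229, 238 and 278 CPM at 26 h. Mt-rnr1 was at 45.1, 54.9 and 49.9 CPM at 18 h, at 68.3, 62.4 and 75.7 CPM at 22 h, and at 54.0, 63.9 and 95.3 CPM at 26 h. The groups of 18, 22 and 26 h overlap for Mt-rnr2. The low level of WT was not limited to these 9 libraries, since 16 of the 21 WT libraries held at most 0.0373% of counts as Mt-rnr2.

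At 30 h replicates 1 and 2 held 274 and 273 CPM of Mt-rnr2, near that low level, and replicate 3 held 1622 CPM. For Mt-rnr1 the same libraries held 73.7, 85.2 and 1167 CPM. Replicate 3 thus had the highest Mt-rnr1 level of all WT libraries. Its correlation with replicates 1 and 2 over all other genes was 0.996 and 0.996, within the range of the other pairs, so it did not stand apart in the rest of its genes as WT replicate 1 of 34 h did.

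At 34 h Mt-rnr2 was at 2142, 673 and 401 CPM in replicates 1, 2 and 3, and Mt-rnr1 at 710, 343 and 147 CPM. All 3 libraries lay above the 9 libraries of 18 to 26 h, for both genes. The lowest of them, replicate 3, also lay above 2 of the 3 libraries of 10 h and of 30 h.

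In KO the levels were even. The lowest library of all 21 held 168785 CPM of Mt-rnr2, the median 192895 and the highest 208877, and for Mt-rnr1 these were 19655, 22678 and 26993 CPM. Means by time ran from 177170 CPM at 18 h to 197677 CPM at 26 h for Mt-rnr2, a factor of 1.12, and from 20820 CPM at 18 h to 25021 CPM at 10 h for Mt-rnr1, a factor of 1.20. The SD of 3 was 6556 to 21042 CPM for Mt-rnr2 and 1055 to 2272 CPM for Mt-rnr1. The widest SD of both genes was that of 34 h, where replicate 1 held 208877 CPM of Mt-rnr2 against 168785 and 177750 CPM in replicates 2 and 3.

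The difference in evenness was set against counting error and against all genes. Counting alone gives a coefficient of variation of 0.319% to 1.004% for Mt-rnr2 and of 0.455% to 2.25% for Mt-rnr1 in WT, while the share of counts varied within groups by 56.4% and 72.4%, or by 46.3% and 69.7% without replicate 1 of 34 h. Without replicate 3 of 30 h it varied by 39.1% and 48.8%, and without both libraries by 22.4% and 44.7%. In KO counting gives at most 0.0355% and 0.105%, and the shares varied within groups by 4.63% and 5.96%. The 95% Wilson interval of a single library's share reached at most 4.42% of its value to either side in WT and 0.203% in KO, and it covers counting error only. Counting error was thus small beside the spread between replicates, and a relation of that spread to library depth was not tested.

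On the scale of log2(CPM + 1) the SD between replicates was 0.77 for Mt-rnr2 and 1.09 for Mt-rnr1 in WT, where the median gene had 0.16. Ranked from the widest, these were the 62nd and the 18th of 13089 genes that averaged 1 CPM or more over all libraries of both genotypes. In KO the SDs were 0.09 and 0.10 against a median of 0.09, at ranks 6998 and 5191, so there the 2 rRNAs varied as the typical gene did. Without WT replicate 1 of 34 h the WT SDs were 0.65 and 1.07 against a median of 0.095, at ranks 78 and 17. Without WT replicate 3 of 30 h the ranks were 250 and 82, and without both libraries 222 and 74.

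**Figure D2:**
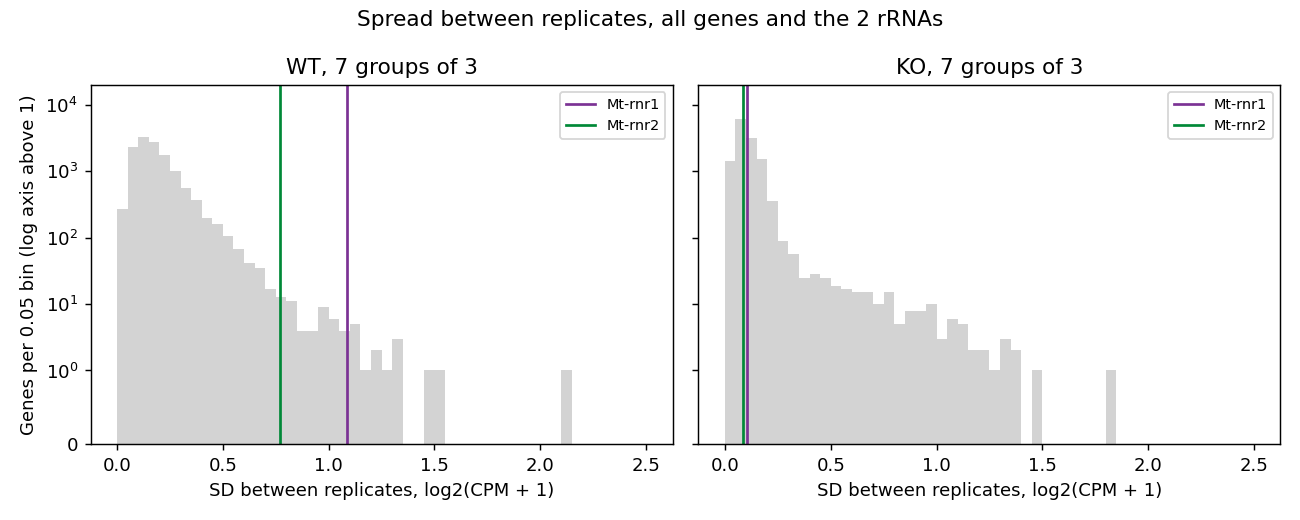
Number of genes (log axis above 1) by SD between replicates of log2(CPM + 1), pooled over 7 groups of 3, in WT and in KO, with the 2 rRNAs as lines. In WT Mt-rnr2 at 0.77 and Mt-rnr1 at 1.09 lie in the upper tail, and in KO both lie within the bulk of genes at 0.09 and 0.10.

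Whether the rRNAs changed over time was tested within each genotype, since the spread differed so much between them. In WT the test of the 7 times by edgeR called both, with an adjusted p of 0.0296 for Mt-rnr1 and 0.0387 for Mt-rnr2, where 15.1% of 13756 genes tested were called. That share was 38.3% without replicate 1 of 34 h, and 138 and 150 genes were called, against 2076, when replicate 2 or replicate 3 was left out at all times. WT means ran from 49.9 CPM at 18 h to 442 CPM at 30 h for Mt-rnr1 and from 246 CPM at 18 h to 1072 CPM at 34 h for Mt-rnr2, whose highest mean was 723 CPM at 30 h when replicate 1 of 34 h was left out. For Mt-rnr1 the highest mean was 400 CPM at 34 h when replicate 3 of 30 h was left out. By medians, both were lowest at 18 h and highest at 34 h, by 6.87 times for Mt-rnr1 and 2.90 times for Mt-rnr2. The calls in WT did not hold under several other fits. With the replicate number as a block both were lost, at an adjusted p of 0.0563 for Mt-rnr1 and 0.0644 for Mt-rnr2 by edgeR. Both were also lost without replicate 2 at all times, at 0.22 and 0.245, and without replicate 3, at 0.067 and 0.0628. With each of the 21 WT libraries left out in turn, Mt-rnr1 was called in 11 fits and Mt-rnr2 in 7, with adjusted p from 0.00612 to 0.059 and from 0.00587 to 0.0676 by edgeR. Leaving out WT replicate 3 of 30 h gave the lowest value for both genes, and without WT replicate 1 of 34 h the adjusted p was 0.0119 and 0.0377.

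In KO neither rRNA was called over the 7 times by edgeR, with an adjusted p of 0.0882 for Mt-rnr1 and 0.272 for Mt-rnr2, while 61.8% of 13763 genes were (41.0% and 38.6% without KO replicate 2 or 3 at all times). Without replicate 1 at all times Mt-rnr2 was called, at 0.0195, and without replicate 2 Mt-rnr1 was, at 0.0126. One library decided this for Mt-rnr2, since without KO replicate 1 of 34 h the adjusted p was 0.031 for Mt-rnr1 and 0.0168 for Mt-rnr2 by edgeR. Mt-rnr1 was also called without KO replicate 2 of 10 h, at 0.0485, and without KO replicate 2 of 18 h, at 0.0368. With any other single library left out, in 18 fits for Mt-rnr1 and 20 for Mt-rnr2, no call was made.

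The WT and KO courses differed by the interaction of genotype and time in edgeR, with an adjusted p of 0.0124 for Mt-rnr1 and 0.0183 for Mt-rnr2, where 39.3% of all genes were called (54.0% without WT replicate 1 of 34 h, and 20.6% to 27.6% without a KO replicate). This fit shares 1 estimate of spread between the genotypes, which for these genes differ in spread, and both calls were lost when any of the 3 KO replicates was left out at all times (adjusted p of 0.112 to 0.181 for Mt-rnr1 and 0.128 to 0.226 for Mt-rnr2).

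The study was about rhythms, and a cosine of 24 h was fitted to each genotype. Mt-rnr1 in WT was called by edgeR with an adjusted p of 0.0486, an amplitude of 1.5 on the log2 scale and a fitted peak at 31.3 h. Mt-rnr2 in WT was not called, with an adjusted p of 0.123, an amplitude of 0.89 and a fitted peak at 32.2 h. In WT 1.81% of genes were called for this rhythm and in KO 34.6%, and both shares moved when libraries were left out. In WT it was 13.8% without replicate 1 of 34 h, and no gene was called by edgeR without replicate 2 or without replicate 3 at all times (1060 and 927 genes at an unadjusted p under 0.05). In KO it was 6.93% without replicate 1 and 0.269% without replicate 2, and no gene was called by edgeR without replicate 3 (3805 genes at an unadjusted p under 0.05). The Mt-rnr1 call in WT was lost with the replicate block, at an adjusted p of 0.0839 by edgeR, and without each of replicates 1, 2 and 3 at all times, at 0.0901, 0.406 and 0.487. It was also lost in 15 of the 21 fits with 1 WT library left out, with adjusted p from 0.0132 without replicate 1 of 34 h to 0.0882 without replicate 1 of 18 h. In KO the amplitudes were 0.07 for Mt-rnr1 and 0.05 for Mt-rnr2, with adjusted p of 0.19 and 0.261 by edgeR. The sampling spans 1 cycle, so a level that is high at the last times and low in the middle gives a cosine without having been seen to return. A 24 h cosine takes the same value at 10 and 34 h. The WT medians at these times were 61.5 and 343 CPM for Mt-rnr1 and 260 and 673 CPM for Mt-rnr2, a difference that was not tested by itself.

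The number of Mt-rnr1 counts per Mt-rnr2 count needs no scaling between libraries. It is a ratio of counts, not of molecules per length, and is compared only between libraries. In KO it was 0.113 in the lowest library, 0.120 in the median and 0.134 in the highest, with a mean of 0.120 ± 0.00560 (SD, n = 21). In WT it was 0.181 in the lowest library, 0.269 in the median and 0.720 in the highest, with a mean of 0.315 ± 0.131 (SD, n = 21), or 0.314 ± 0.135 (SD, n = 20) without replicate 1 of 34 h. The lowest WT ratio was 1.34 times the highest KO ratio, so the genotypes did not overlap, and the WT mean was 2.62 times the KO mean. KO libraries thus held more of both rRNAs and less 12S for each 16S. The ratio is built from the counts on which the genes were chosen, and its difference between genotypes was not tested.

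In WT the ratio was 0.556, 0.236 and 0.230 at 10 h in replicates 1, 2 and 3, and 0.269, 0.312 and 0.720 at 30 h. At 34 h it was 0.331, 0.509 and 0.366. The 3 ratios over 0.5 were those of replicate 1 at 10 h, replicate 3 at 30 h and replicate 2 at 34 h, and the other 18 libraries lay at or under 0.366. Replicate 1 of 34 h, which had the highest Mt-rnr2 level in WT, was among these 18.

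Over the 7 times the WT ratio did not pass a permutation test of the one-way F statistic (p = 0.183, adjusted over the 2 genotypes 0.183, 21 libraries, 100000 resamples), with p = 0.187 by the same permutation test without replicate 1 of 34 h. In KO the ratio was 0.129 ± 0.00570 at 10 h, 0.116 ± 0.00145 at 22 h and 0.120 ± 0.00375 at 34 h (SD, n = 3 each). The same permutation test in KO gave p = 0.0349, which was 0.0698 when adjusted over the 2 genotypes and so did not pass. Without KO replicate 1 the p was 0.423.

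**Figure D3:**
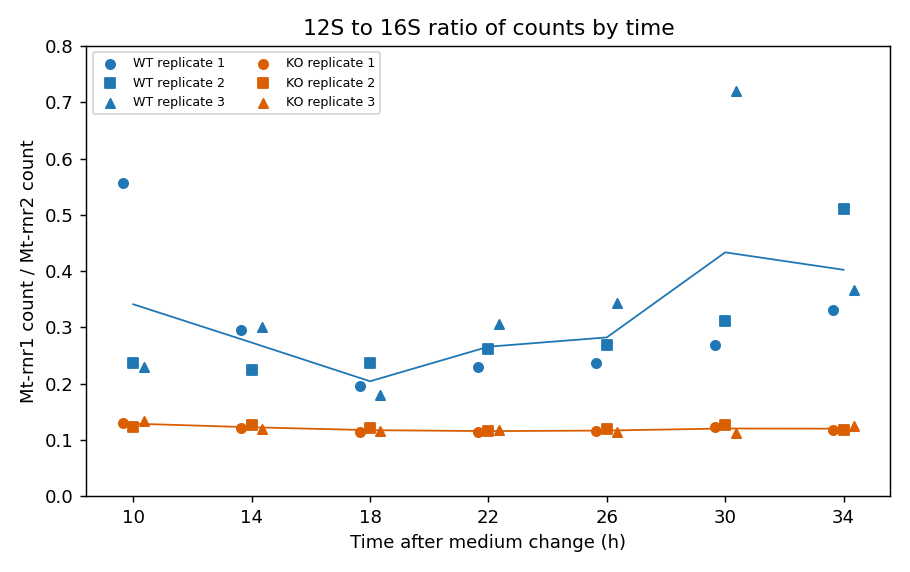
Mt-rnr1 count divided by Mt-rnr2 count in each library against time after medium change (h). Points are libraries, the marker shows the replicate and lines join the means of 3. All KO libraries lie between 0.113 and 0.134 and all WT libraries between 0.181 and 0.720.

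Across libraries of 1 genotype the 2 rRNAs moved together. In WT the correlation of the log2 shares was Pearson's r = 0.960 and Spearman's rho = 0.856 (permutation p = 2e-05 for both, the smallest that 100000 resamples give in a two-sided test, and 4e-05 adjusted over the 2 genotypes, n = 21). Without the 2 libraries farthest from the median Mt-rnr2 share, which were WT replicate 1 of 34 h and replicate 3 of 30 h, r was 0.951. In KO r was 0.738 (permutation p = 0.00018) and rho 0.701 (permutation p = 0.00062, the same values after adjustment over the 2 genotypes, n = 21), and r was 0.658 without the 2 farthest libraries. Both shares are taken of the same total. The slope of log2 Mt-rnr1 on log2 Mt-rnr2 was 1.37 in WT and 1.05 in KO, and in WT 1.65 without replicate 1 of 34 h and 1.28 without replicate 3 of 30 h.

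**Figure D4:**
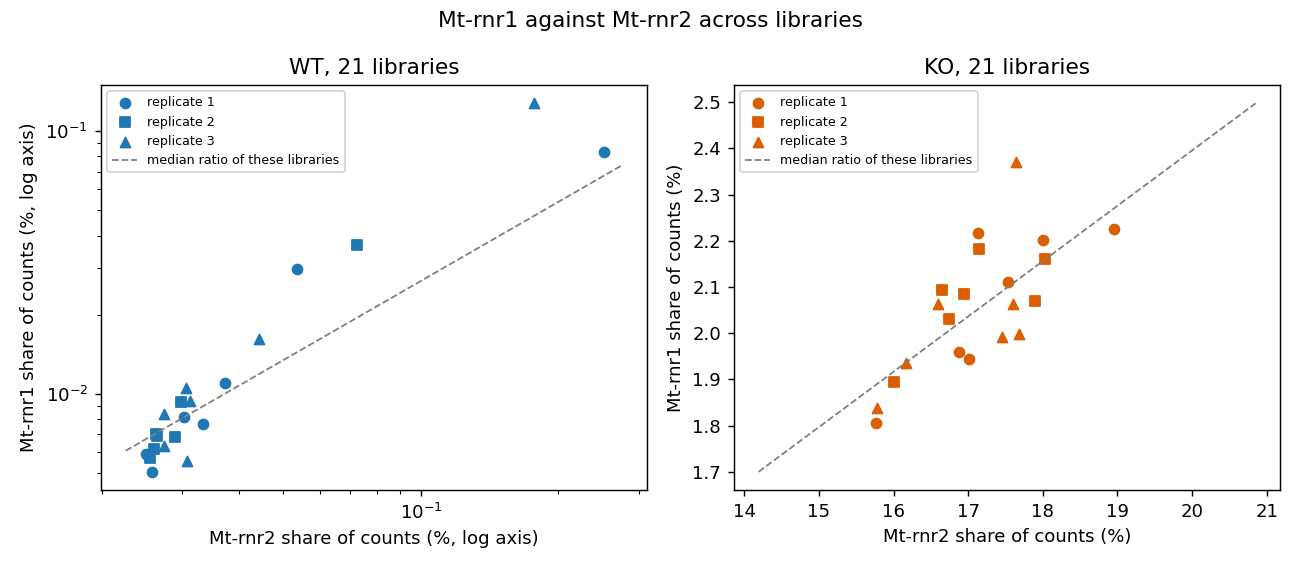
Share of counts of Mt-rnr1 against that of Mt-rnr2 (%), 1 point per library, on log axes for WT and linear axes for KO, with the median ratio of each genotype as a dashed line. The WT libraries with the most Mt-rnr2 lie above the line, at ratios of up to 0.720, and KO libraries scatter around 0.120.

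The makeup of the difference between replicates was read from the library with the most and the library with the least Mt-rnr2 in each group. In WT at 30 h they differed by 0.147 percentage points of Mt-rnr2 and 0.118 of Mt-rnr1, or 0.802 of 12S for each 16S. The corresponding ratio was 0.898 at 10 h and 0.826 at 26 h, but 0.324 at 34 h, where replicates 1 and 3 were compared, against 0.734 there between replicates 2 and 3. It was 0.446, 0.103 and 0.112 at 14, 18 and 22 h. In KO the same ratio was 0.0804 to 0.412. By this ratio of differences the WT groups of 10, 14, 26 and 30 h lay above every KO group, of which the highest was that of 10 h. The WT groups of 18 and 22 h did not. That of 34 h did not with replicate 1 kept, and lay above every KO group without it.

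Genes whose level followed Mt-rnr2 were sought among 13088 genes that averaged 1 CPM or more over all libraries of both genotypes. Pearson's r of log2(CPM + 1) was taken within each genotype, as a description with no p. In WT Mt-rnr1 was the nearest, at r = 0.962 over 21 libraries, and 8 genes in all were above 0.8. Next to it came ENSRNOG00000059852, at 0.899, which was at 0.0998 ± 0.146 CPM in WT and 2.05 ± 2.88 CPM in KO (SD, n = 21 each), so few counts stand behind this value in WT. The same holds for ENSRNOG00000059394, at r = 0.850, with means of 0.0864 CPM in WT and 2.46 CPM in KO. Both are among the 8 genes, and both passed the floor of 1 CPM through their KO level only. ENSRNOG00000029042, ENSRNOG00000031033 and ENSRNOG00000030644, at r = 0.857, 0.847 and 0.836, were better covered. Their medians were 16.6, 50.9 and 73.0 CPM in WT and 102, 555 and 673 CPM in KO. Their log2 differences of KO and WT were 2.34, 2.99 and 2.70. WT replicate 1 of 34 h held the most of each, at 90.8, 852 and 880 CPM, and without that library their r was 0.765, 0.814 and 0.761. In WT replicate 3 of 30 h, where Mt-rnr2 was at 1622 CPM, these genes were at 26.4, 102 and 123 CPM. Without that library 568 genes were above 0.8, against 3 without replicate 1 of 34 h, so the set of genes that resemble Mt-rnr2 in WT rests on which of these 2 libraries is kept.

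In KO the nearest gene to Mt-rnr2 was ENSRNOG00000030371, at r = 0.825 over 21 libraries, ahead of Mt-rnr1 at 0.820, and no further gene was above 0.8. The level of ENSRNOG00000030371 was 505 ± 124 CPM in WT and 1829 ± 226 CPM in KO (SD, n = 21 each), a log2 difference of 1.87 (SE 0.06, adjusted p = 3e-24 by edgeR), and its r with Mt-rnr2 in WT was 0.669. The next 4 genes lay between 0.752 and 0.764. Mt-rnr1 was the only gene above 0.8 in both genotypes with all libraries kept.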

How the data were processed

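Total RNA was purified with a column kit, and libraries that keep the strand were read as 150 bp pairs, per the labels' protocols. The authors deposited raw counts of reads per gene, 1 table per genotype, made with featureCounts per the submitters' processing notes. The aligner, genome build, annotation, strand setting and gene filter are not given in the sources used here. Of 13776 identifiers, 0 matched the GRCr8 gene table, so the 12 gene lists drawn up by symbol, among them the mitochondrial messenger RNAs, were not analysed, and no rRNA sequence is shown. All 42 pairs of replicates differed by more than sampling noise (chi-square per degree of freedom of 5.32 or more).

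Tests used edgeR 4.0.16 in R 4.3.3 (quasi-likelihood, TMM, filterByExpr, Benjamini-Hochberg over all genes tested, called at 0.05). A 14-group fit of 42 libraries gave KO against WT and the interaction, and fits of 21 libraries the time course and the 24 h cosinor of each genotype. Each test was first run on simulated counts with known changes. The simulation gave each gene a single spread for all libraries, so it did not cover a spread that differs between genotypes. Permutation tests used scipy 1.17.1 and numpy 2.4.6. Genes were named by 2 rules. By likeness to Mt-rnr2, the first 5 after Mt-rnr1 are printed in WT and the nearest gene in KO. By rank of fold change among called genes with at least 10 CPM, the first 2 after the rRNAs are printed. The floors of 1 and 10 CPM are means over all libraries of both genotypes, so a gene that is high in KO alone can pass. Members, lists, rules and alternatives were chosen with earlier results of these data known. Alternatives were other scalings, no filter, DESeq2 1.42.0, a replicate block, fits on all libraries and left-out replicates or libraries.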

Additional observations from a re-analysis of the deposited data

Results flagged for a closer look

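The change over the 7 times differed between WT and KO for both rRNAs by the interaction test of edgeR over all 42 libraries, with an adjusted p of 0.0124 for Mt-rnr1 and 0.0183 for Mt-rnr2, where 39.3% of all genes were called (54.0% without WT replicate 1 of 34 h). From the lowest to the highest group mean, Mt-rnr1 spanned 8.85 times in WT and 1.20 times in KO, and Mt-rnr2 4.35 times in WT (2.94 times without replicate 1 of 34 h) and 1.12 times in KO. The WT span of Mt-rnr1 was 8.01 times without replicate 3 of 30 h. Without both of these libraries the WT spans were 4.90 times for Mt-rnr1 and 2.18 times for Mt-rnr2. The call held in all 21 fits with 1 WT library left out, with adjusted p of at most 0.0193 for Mt-rnr1 and 0.0375 for Mt-rnr2. With 1 KO library left out it held in 21 fits for Mt-rnr1 and in 20 for Mt-rnr2, the exception being KO replicate 2 of 34 h (adjusted p = 0.0524). The fit uses 1 estimate of spread for both genotypes, a coefficient of variation of 0.498 for Mt-rnr1 and 0.364 for Mt-rnr2, while fits of 1 genotype gave 0.663 and 0.488 in WT and 0.0685 and 0.0603 in KO. The shared estimate is thus lower than that of WT, where the change over time was seen, and the part this played in the call was not tested. When a KO replicate was left out at all times, adjusted p was 0.112 to 0.181 for Mt-rnr1 and 0.128 to 0.226 for Mt-rnr2.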

How the results depend on the processing

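The 24 results were recomputed under alternatives, which gave 253 values, and 206 kept their call, or stayed within 1.5 times of a count or within 1 SD of a value without test. No result changed sign. Leaving out WT replicate 1 of 34 h was planned, and leaving out any other single library was chosen after the data were seen. Causes were not tested. The log2 difference of KO and WT ran from 7.23 to 7.97 for Mt-rnr1 and from 8.66 to 9.29 for Mt-rnr2. Genes called for KO against WT ran from 10726 to 12497, with 31.7% of them higher in KO under library totals against 49.2% with TMM, and a median log2 difference of -0.31 under library totals.

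With the replicate block the WT time course gave adjusted p of 0.0563 for Mt-rnr1 and 0.0644 for Mt-rnr2, and the WT cosinor 0.0839 for Mt-rnr1 with 161 genes called. Whether the numbers pair the samples was not settled. Correlations of deviations between same-numbered libraries ran from -0.36 to 0.42 in WT and from -0.152 to 0.134 in KO. Of 21 libraries each, 8 in WT and 13 in KO correlated best with their own number. With DESeq2 the KO time course of Mt-rnr1 gave 0.0387 and the WT cosinor of Mt-rnr2 0.0453, with 3807 genes called for the WT time course against 2076 and 793 for the WT cosinor against 249. With all 42 libraries in the fit, 5168 genes were called for the WT and 5065 for the KO time course (8505 in its own fit), 726 for the WT and 2776 for the KO cosinor (4768 in its own fit), and Mt-rnr2 in the WT cosinor was at 0.00615.

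With 1 replicate left out at all times, or 1 library alone, the WT time course gave 138 to 5272 genes and adjusted p of 0.00612 to 0.22 for Mt-rnr1 and 0.00587 to 0.245 for Mt-rnr2. Without both WT replicate 3 of 30 h and replicate 1 of 34 h it called 4699 genes and the WT cosinor 1576. The WT cosinor gave 0 to 1896 genes and 0.0132 to 0.487 for Mt-rnr1, which was 0.0783 without WT replicate 3 of 30 h. The KO time course gave 5314 to 7715 genes, 0.0126 to 0.538 for Mt-rnr1 and 0.0195 to 0.861 for Mt-rnr2 without a replicate, and 7693 to 8949 genes, 0.031 to 0.26 and 0.0168 to 0.578 without 1 library. The KO cosinor gave 0 to 954 genes without a replicate and 3333 to 5600 without 1 library. The interaction gave 2835 to 6851 genes without a replicate, 7441 without WT replicate 1 of 34 h and 4462 to 7965 over all single libraries, with adjusted p of 9.52e-05 to 0.181 for Mt-rnr1 and 7.8e-05 to 0.226 for Mt-rnr2. The 0 counts of edgeR came without WT replicate 2 or 3 and without KO replicate 3, where 1060, 927 and 3805 genes had an unadjusted p under 0.05. No other tool was run there. The p of the KO ratio over time ran from 0.0397 to 0.423. The relations of the rRNAs with mitochondrial messenger RNAs were not run, for want of symbols.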
